A study of Mus musculus with 12 samples.

Results

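The transcripts described here are the sense transcripts whose ribosome footprints were depleted during heat shock of wild-type mouse embryonic stem cells. They number 123, of 61396 transcript IDs counted in the series. They were chosen by their levels in heated and unheated wild-type cells: the counts on the transcript's own strand, called sense counts below, per 1000000 of all reads of a library, whether or not a read was assigned to a transcript. A transcript needed at least 50 stranded counts over the 12 libraries with at least 80% of them sense, which 405 transcripts had. It also needed at least 20 sense counts over the wild-type unheated and heated libraries, which left 364. Finally, the log2 ratio of heated to unheated level, each with 0.5 added, had to be -3 or lower, that is 8-fold. This held for 146 transcripts, of which 23 have IDs that were left out by name.

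Ribosome profiling sequences the mRNA pieces that a translating ribosome shields from nuclease, so a count reflects how many ribosomes sit on all copies of a transcript together. Heat shock unfolds proteins, and cells respond by making chaperones while initiation of translation on most other mRNAs is reduced. Mettl14 pairs with Mettl3 in the complex that writes N6-methyladenosine into mRNA, a mark that affects mRNA stability and translation. Without Mettl14, embryonic stem cells survive and self-renew.

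All libraries came from V6.5 mouse embryonic stem cells, either wild type (WT) or Mettl14 -/- (KO), grown on gelatin in mouse LIF with the GSK3 inhibitor CHIR99021 and the MEK1 inhibitor PD0325901. Cells were not heated (preHS), were heated at 42 °C for 30 min (HS), or were heated likewise and then kept at 37 °C for 1 h (postHS). Both genotypes went through all of these conditions, and every lysate contained cycloheximide, which halts ribosomes. The series' design calls the 2 libraries of each of the 6 groups biological replicates. Whether the KO line is a single clone is not given in the sources used here. Only ribosome footprints were analysed, so fewer ribosomes per mRNA copy and fewer copies cannot be told apart. Levels are relative to all reads of a library, so a change in the other reads would shift them too.

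The files pair no ID with a gene symbol, and 0 of the IDs matched the RefSeq mouse gene table, so transcripts are given by ID, without function, position or sequence. For the same reason Mettl14 and stem cell markers were not checked in the counts. Libraries held 679360 to 2084034 reads, of which 1.26% to 8.75% were assigned to a transcript on either strand, and both KO postHS libraries were lowest at 1.27% and 1.26%. The WT postHS libraries stood apart from each other. Replicate 1 held 175 sense counts per 1000000 reads on the 123 transcripts and replicate 2 held 2237. Results that rest on WT postHS are therefore given by library.

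Before heat, no single transcript held a large part of the footprints on the 123 transcripts. The pooled WT preHS levels ran from 6.49 to 103 sense counts per 1000000 reads, with a median of 11.5. The 10 highest transcripts held 26.8% of the 6956 sense counts that all 123 received in WT preHS, and the highest held 5.02%. WT preHS replicate 2 was above replicate 1 for 114 of the 123. For 6 of them the WT preHS libraries differed by more than 8-fold. Without replicate 2 the same rule gave 24 transcripts, and without replicate 1 it gave 117. The rule kept its minimum of sense counts when a library was left out. Most of the 123 did not reach that minimum on WT preHS replicate 1 and WT HS alone. The fall to 24 therefore cannot show whether the depletion itself rested on replicate 2. Over all 12 libraries the transcripts had 45 to 656 sense counts each, with a median of 74.

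The WT libraries that chose the transcripts are described without a test. In WT HS, the 123 transcripts together received 57.1 ± 10.8 sense counts per 1000000 reads, against 1956 ± 870 in WT preHS (SD, n = 2 each). WT HS replicate 1 had no count for 54 of them and replicate 2 none for 99, and 44 were without a count in both. As many as 90 had at most 1 count over both WT HS libraries, and no transcript had more than 12. A group total of 0 counts allows a level of up to 1.01 per 1000000 reads in WT HS (3 counts over the group). Both WT HS libraries lay below both WT preHS libraries for 121 of the 123, where 58.0% of all 405 sense transcripts did so and 5.43% had both WT HS libraries above. Nothing is read from that count, since the same libraries made the choice. At the threshold, the last transcripts taken had log2 ratios of -3.04 and -3.01, with 31 and 67 counts in WT preHS and 2 and 6 in WT HS. The first ones not taken had -2.99 and -2.99, with 30 and 39 counts in WT preHS and 2 and 3 in WT HS. For these 4 transcripts, 1 heated read more or less would change the side of the threshold.

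**Figure D1:**
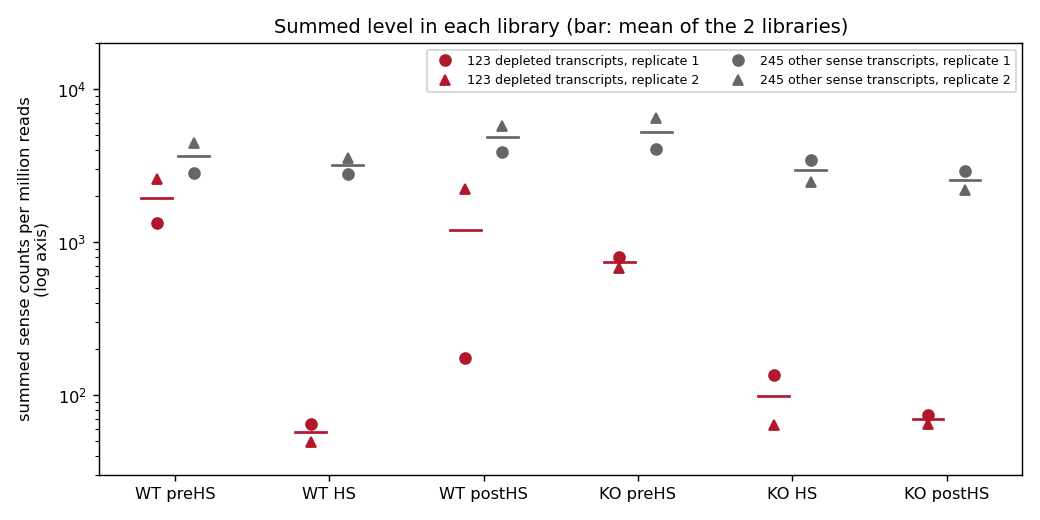
Summed sense counts per 1000000 reads (log axis) of the 123 depleted transcripts (red) and of 245 other sense transcripts (grey) in each library, with circles for replicate 1, triangles for replicate 2 and bars for the mean of 2 libraries. The red sums lie at 1341 and 2572 in WT preHS, 804 and 680 in KO preHS, and between 49.5 and 134 in every HS and KO postHS library, while the grey sums stay between 2211 and 6479.

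The most occupied transcript, uc008cqz.1, shows the pattern at the best depth. It had 110 and 239 sense counts in WT preHS, 9 and 3 in WT HS, and 44 and 130 in WT postHS. In the KO it had 76 and 27 in preHS, 12 and 3 in HS, and 3 and 0 in postHS. Its heated libraries were below the unheated ones of the same genotype, without overlap. The pooled level was 25.5-fold lower in WT HS than in WT preHS and 5.08-fold lower in KO HS than in KO preHS. The KO difference under heat did not pass the test (log2 fold change -2.45 ± 1.09 SE, edgeR adjusted p = 0.217). Its ratio was 2.60 without KO preHS replicate 1, 7.68 without KO preHS replicate 2 and 8.02 without KO HS replicate 1. The KO postHS level was 22.0-fold below KO preHS (95% exact counting interval of the ratio 7.31 to 108, on 3 counts in KO postHS) and passed (log2 fold change -4.54 ± 1.28 SE, edgeR adjusted p = 0.0142). The KO postHS ratio was 11.2 without KO preHS replicate 1, 33.2 without KO preHS replicate 2, and at least 6.07 without KO postHS replicate 1.

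The next most occupied, uc009ajk.1, had almost no footprint in the heated WT libraries and more in 1 heated KO library. It had 96 and 204 sense counts in WT preHS, 2 and 0 in WT HS, and 17 and 129 in WT postHS. The KO counts were 66 and 33 in preHS, 17 and 1 in HS, and 2 and 1 in postHS. Of its 18 KO HS counts, 17 came from replicate 1. The pooled level was 131-fold lower in WT HS than in WT preHS, on 2 counts (95% exact counting interval 36.1 to 1091), and at least 26.2-fold lower without WT HS replicate 1. It was 4.07-fold lower in KO HS than in KO preHS (edgeR adjusted p = 0.239), with ratios of 2.65 without KO preHS replicate 1 and 23.1 without KO HS replicate 1. The difference between the WT and KO ratios was not tested, since the WT ratio chose the transcript. KO postHS lay 21.1-fold below KO preHS (interval 7.02 to 104, on 3 counts) and passed (log2 fold change -4.29 ± 1.33 SE, edgeR adjusted p = 0.0301), with a ratio of 13.7 without KO preHS replicate 1.

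The KO libraries entered the choice only through the minimum of 50 counts and the sense share. In heated KO cells, all 123 transcripts had lower pooled levels than in unheated KO cells. Together they received 742 ± 87.8 sense counts per 1000000 reads in KO preHS and 98.8 ± 50.0 in KO HS (SD, n = 2 each). The other 245 sense transcripts received 5270 ± 1710 and 2964 ± 684. Expressed as a share of the sense counts of all these 368 transcripts, the 123 took 13.0% ± 4.97 in KO preHS and 3.12% ± 0.884 in KO HS. The median log2 ratio of KO HS to KO preHS was -2.25 over the 123 (quartiles -2.87 and -1.50, highest -0.20). It was -0.51 over the other 245 and -1.41 over all 405. With transcripts without a count set at 3 counts over the group, the median of the 123 was -2.30. With 2 added in place of 0.5 it was -1.36. Both KO HS libraries lay below both KO preHS libraries for 101 of the 123, or 82.1%, and both lay above for none. Among all 405 sense transcripts 57.5% lay below in this way and 12.1% above, and among the other 245 the count below was 102, or 41.6%.

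Single transcripts seldom passed the test in heated KO cells. Of the 123, 120 passed the filter on low counts and were tested, and uc008jud.1, uc009kkv.2 and uc009usg.2 were not. Only uc033gpy.1 fell, 1 of 120 or 0.833%, where 0.397% of the 504 transcripts tested passed (edgeR quasi-likelihood test, adjusted p below 0.05). At an unadjusted p below 0.05 the count was 48 of 120, or 40.0%, where 20.0% of all tested transcripts did so. The DESeq2 Wald test called 4, or 3.33%, where 4.17% of all 504 passed, and gave no adjusted p for 90 of the 120. The edgeR count depended on single libraries, but fits without 1 library leave 1 library in a group, and their counts are not compared here. On leaving out 1 KO preHS or KO HS library, the median log2 ratio over the 123 was -2.96 to -1.92. A fit of KO preHS and KO HS alone gave 35, or 29.2%, where it called 17.5% of all 504. The biological coefficient of variation was 80.6% over all 12 libraries, 62.1% and 62.3% without WT postHS replicate 1 and 2, and 53.5% in the fit of KO preHS and KO HS alone.

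The unheated KO libraries of uc033gpy.1 disagreed. It had 60 and 154 sense counts in WT preHS, 6 and 0 in WT HS, and 11 and 14 in WT postHS. In the KO it had 6 and 176 in preHS and none in either HS or either postHS library. The level was at least 44.9-fold lower in KO HS than in KO preHS (edgeR adjusted p = 0.0161). That bound was 3.03 without KO preHS replicate 2 and 84.8 without replicate 1, and leaving out KO HS replicate 1 or 2 gave 14.2 or 30.7. The KO HS libraries had no count, so leaving 1 out changed only the reads that set the bound. Both WT postHS libraries of this transcript stayed below both WT preHS libraries.

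At the other end, uc009aio.1 was the least depleted in the heated KO. It had 15 and 52 sense counts in WT preHS, 4 and 2 in WT HS, and 13 and 6 in WT postHS. The KO counts were 19 and 14 in preHS, 16 and 5 in HS, and 17 and 4 in postHS. Per 1000000 reads the KO libraries lay between 5.57 and 10.1 in all conditions, with the ranges of the conditions close together or overlapping (KO HS against KO preHS log2 fold change -0.30 ± 1.18 SE, edgeR adjusted p = 0.864). Its WT log2 ratio of -3.01 was the one nearest the threshold. The next least depleted, uc009mqa.1, had 6 and 1 counts in KO preHS and 4 and 0 in KO HS, and passed no test (edgeR adjusted p = 0.831).

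**Figure D2:**
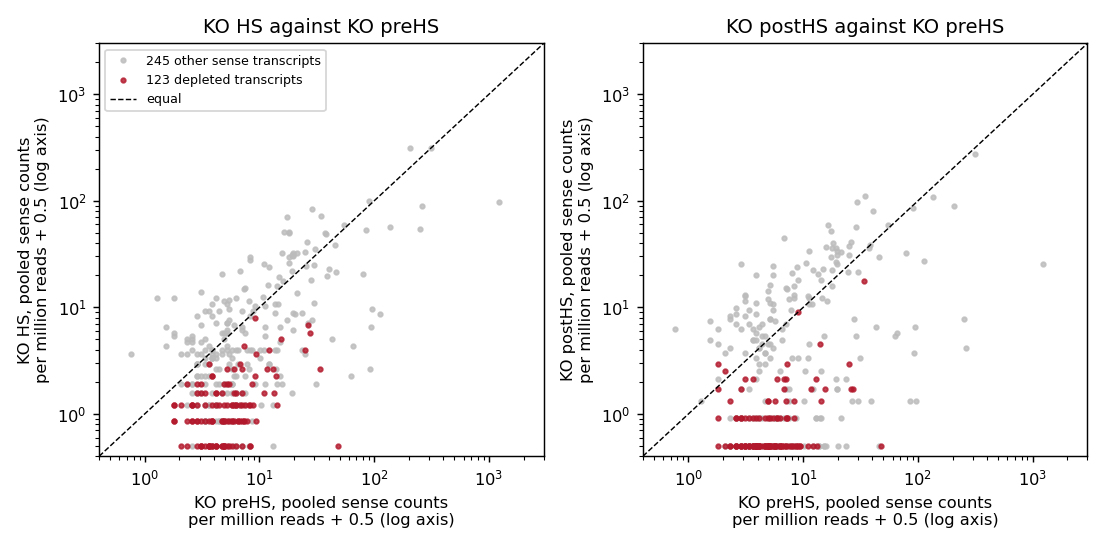
Pooled sense counts per 1000000 reads plus 0.5 in KO HS (left) and KO postHS (right) against KO preHS, both axes logarithmic, for the 123 depleted transcripts (red) and 245 other sense transcripts (grey), with a dashed line at equality. All 123 red points lie below the line on the left and 121 on the right, and 30 and 75 of them sit on the bottom row, which marks no count.

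After recovery the KO libraries stayed low. The 123 transcripts together received 69.5 ± 6.68 sense counts per 1000000 reads in KO postHS (SD, n = 2), and 75 of them had no count in either library. A group total of 0 counts allows up to 1.22 per 1000000 reads in KO postHS. The share of the sense counts of the 368 transcripts was 2.66% ± 0.258, against 13.0% ± 4.97 in KO preHS. By the choice, the other 245 of these are mostly transcripts that were not depleted to the threshold in heated WT cells. Both libraries had few reads assigned to any transcript (1.27% and 1.26%, against 6.58% and 8.37% in KO preHS), and the part of this in the low levels was not tested. The other 245 sense transcripts received 2564 ± 499 per 1000000 reads, and 25.3% of them had no count in KO postHS.

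Against KO preHS, the median log2 ratio of KO postHS was -2.96 over the 123 (quartiles -3.41 and -2.22), -1.30 over the other 245 and -2.51 over all 405. With transcripts without a count set at 3 counts over the group, the median of the 123 was -1.999, and it was -4.76 with 0.1 added in place of 0.5. Both KO postHS libraries lay below both KO preHS libraries for 113 of the 123, or 91.9%, where the share was 68.4% among all 405 and 52.7% among the other 245. Both lay above for none of the 123, against 13.1% of all 405. By edgeR 9 of 120 fell, or 7.50%, close to the 9.92% of all 504 tested transcripts. At an unadjusted p below 0.05 the counts were 74 of 120, or 61.7%, and 38.5% of all tested. This comparison shares the KO preHS libraries with the one under heat.

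The count of 9 depended on single libraries. Fits without 1 library leave 1 library in a group, so their counts are not compared here. It was 16 without KO HS replicate 1 or without replicate 2, and 77 and 75 without WT postHS replicate 1 and 2. With TMM scaling 17 of the 120 passed, or 14.2%, where 13.7% of all 504 did. A fit of KO preHS and KO postHS alone called 85, or 70.8%, where it called 52.0% of all 504.

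By fitted fold change, the largest decreases among the 9 were those of uc033gpy.1 and uc009dun.1. For uc033gpy.1 the level was at least 38.8-fold lower in KO postHS than in KO preHS (edgeR adjusted p = 0.00223). This bound was 2.62 without KO preHS replicate 2, which held 176 of its 182 counts, and 73.3 without replicate 1. It was 10.7 or 28.1 without KO postHS replicate 1 or 2. The transcript uc009dun.1 had 31 and 18 sense counts in KO preHS, 3 and 0 in KO HS, and 0 and 0 in KO postHS. In the WT it had 17 and 86 in preHS, 1 and 0 in HS, and 0 and 29 in postHS. Its KO postHS level was at least 10.4-fold below KO preHS (edgeR adjusted p = 0.0302), a bound of 2.89 without KO postHS replicate 1 and of 7.50 to 13.5 without any other of these libraries. For both transcripts, leaving out a KO postHS library, which had no count, changed only the reads that set the bound.

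From KO HS to KO postHS the 123 transcripts showed no further change that the test could detect. Only 27 of the 123 had more than 3 counts over both KO HS libraries, so for most a further fall could hardly be detected. By edgeR 0 of 120 passed, where 1.39% of the 504 did, and 3 of 120 had an unadjusted p below 0.05, against 8.33% of all tested. DESeq2 called 0 as well, where 3.17% of the 504 passed. It had 0 at an unadjusted p below 0.05, against 6.15% of all tested, and no adjusted p for 108 of the 120. The median log2 ratio was -0.60 over the 123 and -0.38 over the other 245, and it was 0.21 over the 123 with transcripts without a count set at 3 counts over the group, so the direction depends on how transcripts without a count are treated. As many as 21 transcripts had no count in any of the 4 libraries. Both KO postHS libraries lay below both KO HS libraries for 19 transcripts and above them for 5, or 15.4% and 4.07%, against 21.5% and 9.38% among all 405. The smallest p belonged to uc007hle.1, with 10 and 0 sense counts in KO HS and 0 and 0 in KO postHS, which did not pass.

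In WT recovery the libraries lay far apart. Replicate 1 had no count for 41 of the 123 transcripts, and its median log2 ratio to pooled WT preHS was -3.50, near the -4.08 and -4.40 of the WT HS libraries. Replicate 2 had no count for 2 of them, and its median log2 ratio was 0.18, with 107 of the 123 within 2-fold of WT preHS. Replicate 2 was above replicate 1 for 120 of the 123. The other 245 sense transcripts had medians of -0.45 and 0.51 in these libraries, a smaller gap. The 123 took 4.28% of the sense counts of the 368 transcripts in replicate 1 (95% Wilson interval 3.84% to 4.77%, counting error only) and 27.8% in replicate 2 (26.9% to 28.8%). These libraries are set against WT preHS by level alone, since WT preHS chose the transcripts. The share of reads assigned was alike, 6.98% in replicate 1 and 7.25% in replicate 2. Both lay below both WT preHS libraries for 16 of the 123, or 13.0%, where 11.4% of all 405 did so, and both lay above for none, where 12.3% did.

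**Figure D3:**
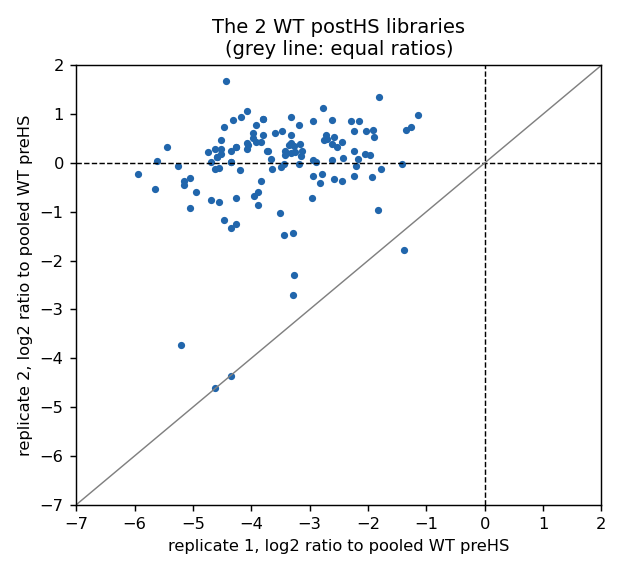
Log2 ratio of each WT postHS library to pooled WT preHS for the 123 transcripts (sense counts per 1000000 reads plus 0.5), replicate 1 on the horizontal and replicate 2 on the vertical axis, with dashed lines at 0 and a grey line at equal ratios. The points spread along the horizontal line at 0 for replicate 2, around a median of 0.18, and lie far to the left for replicate 1, around -3.50.

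Among the few transcripts that did not return in WT postHS replicate 2 either, 3 stood at a log2 ratio of -3 or lower. Their values were known when they were picked. The transcript uc012ecs.1 had 38 and 2 sense counts in WT preHS and none in WT HS or WT postHS. The transcript uc008til.3 had 0 and 33 counts in WT preHS, 1 and 0 in WT HS and none in WT postHS, and uc009usg.2 had 1 and 60, 0 and 0, and 0 and 1. For each of these, 1 WT preHS library held nearly all of the unheated counts, so the depletion rests on that library.

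Compared in recovery, KO postHS lay below WT postHS for many of the transcripts, and WT postHS replicate 2 carried this difference. The median log2 ratio was -3.31 over the 123, -1.25 over the other 245 and -2.70 over all 405. Without WT postHS replicate 2 the median over the 123 was -0.63, and without replicate 1 it was -4.49. It was -5.28 with 0.1 and -1.77 with 2 added in place of 0.5, and -2.34 with transcripts without a count set at 3 counts over the group. By edgeR 43 of 120 were lower in KO postHS, or 35.8%, where 22.0% of the 504 tested transcripts passed and 46 of 227 tested transcripts among the other 245. At an unadjusted p below 0.05 the counts were 91 of 120, or 75.8%, and 49.0% of all tested. The count of 43 depended on single libraries. As fits without 1 library leave 1 library in a group, their counts are not compared here. A fit of WT postHS and KO postHS alone called 6 of the 120, or 5.0%, where it called 6.75% of all 504. Both KO postHS libraries lay below both WT postHS libraries for 62 of the 123, or 50.4%, close to the 50.6% among all 405, and above for 1, against 8.40% of all 405.

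Of the most occupied transcripts, uc008cqz.1 was 48.9-fold lower in KO postHS than in WT postHS (95% exact counting interval 16.5 to 239.7, edgeR adjusted p = 0.00217), and its ratio was 95.3 without WT postHS replicate 1, 20.1 without WT postHS replicate 2 and at least 13.5 without KO postHS replicate 1. By fitted fold change, the largest of these differences were those of uc007wmt.2 and uc008fru.1. The transcript uc007wmt.2 had 10 and 60 sense counts in WT postHS and none in KO postHS, at least 19.7-fold lower (edgeR adjusted p = 0.00476). Its counts were 38 and 61 in WT preHS, 6 and 0 in WT HS, 13 and 12 in KO preHS, and 6 and 0 in KO HS. The bound was 44.0 without WT postHS replicate 1 and 4.56 without replicate 2, and 5.44 or 14.2 without KO postHS replicate 1 or 2. The transcript uc008fru.1 had 5 and 56 counts in WT postHS and none in KO postHS, at least 17.2-fold lower (edgeR adjusted p = 0.00456). Its counts were 48 and 96 in WT preHS, 1 and 2 in WT HS, 19 and 12 in KO preHS, and 3 and 1 in KO HS. The bound was 41.1 without WT postHS replicate 1 and 2.28 without replicate 2, and 4.74 or 12.4 without KO postHS replicate 1 or 2. For uc007wmt.2 and uc008fru.1, leaving out a KO postHS library, which had no count, changed only the reads that set the bound.

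Some transcripts had counts in KO postHS as high as before heat in 1 library or more, and they were picked after their values were seen. The transcript uc033gig.1 had the most KO postHS counts, 40 and 2, after 5 and 1 in KO HS and 38 and 90 in KO preHS. Its WT counts were 14 and 54 in preHS, 4 and 0 in HS, and 13 and 22 in postHS. Of its KO postHS counts, 40 came from replicate 1, and KO postHS against KO preHS did not pass (log2 fold change -1.31 ± 1.14 SE, edgeR adjusted p = 0.336). Only uc012ecs.1 and uc008mqi.2 had a higher pooled level in KO postHS than in KO preHS, with 0 and 6 counts against 1 and 4, and with 2 and 3 against 2 and 4. Neither passed (edgeR adjusted p = 0.482 and 0.75).

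**Figure D4:**
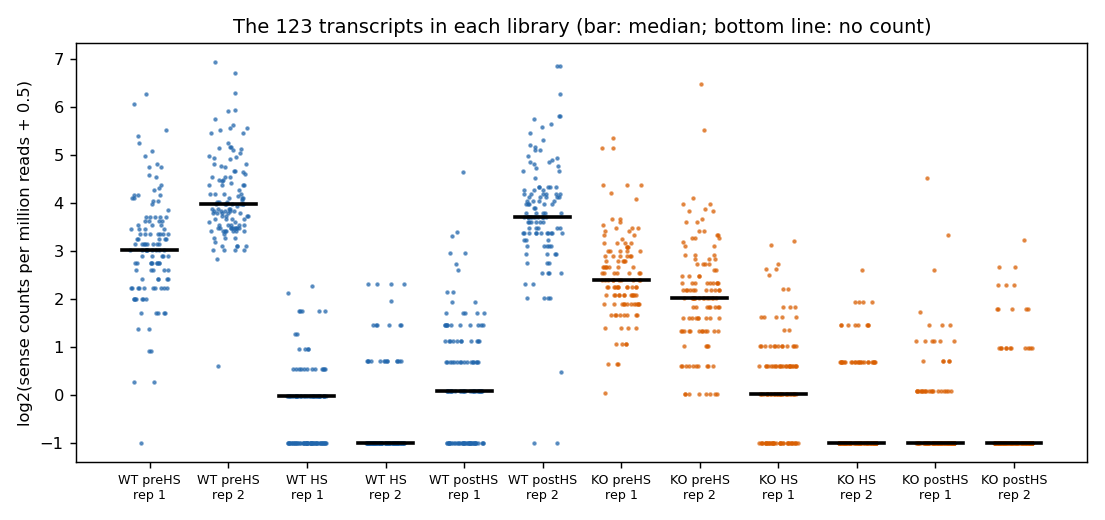
Level of each of the 123 transcripts in each library, as log2 of sense counts per 1000000 reads plus 0.5, with WT in blue, KO in orange and a black bar at the median; the bottom row of points has no count. The medians of WT HS replicate 2, KO HS replicate 2 and both KO postHS libraries lie on that row, where 99, 86, 85 and 101 of the 123 transcripts had no count.

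Unheated, the 123 transcripts were lower in the KO than in the WT libraries. The median log2 ratio of KO preHS to WT preHS was -1.41 over the 123, with 120 of them below 0, and -0.11 over the other 245. Both KO preHS libraries lay below both WT preHS libraries for 85 of the 123, where the share was 36.3% among all 405 sense transcripts, and above for none, where it was 11.1%. High WT preHS counts were part of the choice of the 123, so this comparison has no test and nothing is read from it. The order of summed levels in the KO, preHS above HS and postHS, held in every library, whereas KO HS (134 and 63.5 per 1000000 reads) and KO postHS (74.2 and 64.8) overlapped.

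Over all 12 libraries the 123 transcripts had 13288 sense and 146 antisense counts, and 73 of them had no antisense count. The highest antisense share, 18.2%, was that of uc007mut.1, with 10 antisense and 45 sense counts, and 13 transcripts were above 5%. Summed antisense counts per 1000000 reads were 6.27 and 4.09 in WT preHS, 4.32 and 19.1 in WT HS, and 6.68 and 7.16 in WT postHS. In the KO they were 7.47 and 7.12 in preHS, 7.71 and 6.68 in HS, and 11.8 and 19.1 in postHS. The antisense sums ranged from 4.09 to 19.1 over the libraries, and the highest were those of WT HS replicate 2 and KO postHS replicate 2. As a share of the stranded counts on the 123 transcripts, antisense counts made up 0.159% to 1.04% in the preHS libraries of both genotypes. The share was 6.25% and 27.9% in WT HS, 5.43% and 9.52% in KO HS, 13.7% and 22.8% in KO postHS, and 3.68% and 0.319% in WT postHS. Either-strand counts equalled the sum of both strands within 1% for 111 of the 123. They were under 90% of it for uc009qei.1 and uc007gqi.1, picked once their values were known.

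By ID, the transcripts were spread over the file, but all IDs starting with uc007p, uc008qm or uc009v had been left out by name. This shaped the spread, so nothing is read from it. Of the 123, 40 had IDs starting with uc007, 35 with uc008 and 42 with uc009, where 92, 90 and 92 of the 368 sense transcripts did. Only 2 of the 123 had IDs starting with uc033, where 48 of the 368 did. Neighbouring rows of the files were both among the 123 in 2 cases, and both among the 368 in 10.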

How the data were processed

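The authors deposited raw counts per transcript for 12 ribosome footprint libraries. Each table opens with 4 rows of unassigned reads and lists either-strand, sense and antisense counts, as STAR writes them; this was read from the files themselves, which name no columns. STAR, DESeq2 and mm10 are named without version or role, per the submitters' processing notes. Trimming, the filter for ribosomal RNA and the annotation's version are unknown here.

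Sense counts were scaled to all reads of a library (unassigned rows plus either-strand counts), the scale of the rule that chose the transcripts, and unassigned reads were not tested. Transcripts kept by filterByExpr (minimum count 10; 504 of them) were tested with edgeR 4.0.16 (R 4.3.3) by the quasi-likelihood test, in 1 fit of 12 libraries with a coefficient per group, 6 residual degrees of freedom and Benjamini-Hochberg adjustment over all 504. Fold changes of pooled levels are ratios, and against a group without counts a floor of 3 counts over the group gives a lower bound. Intervals and floors reflect counting error alone, as PCR copies of a molecule are not separate observations. DESeq2 1.42.0 was an alternative. The fitting code was also run on simulated counts with a preset spread and no shift shared by most transcripts. These settings differ from the data, so that run does not vouch for the calls here.

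The members and lists were chosen with earlier results of these data known. P-values rest on the spread between the 2 libraries within each group. This spread was estimated over all 6 groups and partly shared between transcripts, not over the compared groups alone. Replicate numbers did not pair the libraries, so no block was used. IDs named are the 2 most occupied, those with the largest change past the threshold (or the smallest p) in each comparison, the least depleted in KO HS and the one with the highest antisense share. Other IDs were named after their values were seen, or because they failed the filter. Gene lists and cell markers were not analysed here, since no ID has a symbol. Libraries left out, scalings, filters, strand and rule settings were varied.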

Additional observations from a re-analysis of the deposited data

How the results depend on the processing

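Call counts are of the 120 transcripts tested, unless another number is given. A percentage in brackets is the share of all tested transcripts that passed in the same setting. KO HS against KO preHS gave 1 called transcript (0.397%), but 4 by the DESeq2 Wald test (4.17%). It gave 0 from either-strand counts (0%) and 35 when these groups were fitted alone (17.5%). Fits without 1 library leave 1 library in a group, and their counts are not compared here. The same holds without both shallow libraries (WT HS replicate 2 and KO postHS replicate 2, an alternative added after seeing the data). KO postHS against KO preHS gave 9, but 17 with TMM scaling, 21 with DESeq2 size factors, 20 by the DESeq2 Wald test, 1 of 123 without the filter on low counts, 2 from either-strand counts, 85 when fitted alone and 0 without both shallow libraries, with 0 to 77 on leaving out 1 library. KO postHS against KO HS gave 0 in every setting run, except 1 of 160 where the list was chosen at a log2 ratio of -2. Most of the transcripts had too few KO HS counts for a further fall to be detected, so these values of 0 say little. KO postHS against WT postHS gave 43, but 6 of 123 without the filter, 12 from either-strand counts, 6 when fitted alone, 0 without both shallow libraries, 25 of 60 with the list chosen at -4, 27 of 37 with at least 100 counts per transcript, and 0 to 109 on leaving out 1 library. The causes were not tested.

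The same-numbered libraries deviated together with correlations of -0.105, -0.0418, 0.196 and 0.0509 in these comparisons, so the numbers were not taken as pairs. A replicate block gave 1, 12, 0 and 19 calls, beside 0.595%, 11.1%, 1.19% and 13.7% of all 504. Crossing the KO HS numbers in the block, also added after seeing the data, gave 1 call for KO HS against KO preHS, beside 0.595%.

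The median log2 ratio of KO HS to KO preHS was -2.25, and -1.36 with 2 added to each level. That of KO postHS to KO preHS was -2.96, but -4.76 with 0.1 added, -1.50 with 2 added, -2.68 with TMM scaling, -3.30 over transcripts with at least 100 counts, -1.999 with transcripts without a count at 3 counts (added likewise), and -3.14 to -2.60 on leaving out 1 library. That of KO postHS to KO HS turned from -0.60 to 0.21 with transcripts without a count at 3 counts. That of KO postHS to WT postHS was -3.31, but -5.28 with 0.1 added, -1.77 with 2 added, -2.34 with transcripts without a count at 3 counts, and -4.49 to -0.63 on leaving out 1 library. TMM scaling moved the fitted median of all 504 tested transcripts from -1.99 to -1.40 in KO HS against KO preHS and from -4.09 to -3.84 in KO postHS against KO preHS. It moved this median from -0.66 to -0.82 in KO postHS against KO HS and from -4.97 to -4.37 in KO postHS against WT postHS. In the last it called 29 of the 120 lower and 1 higher, or 25.0%, where 18.5% of all 504 passed. Under TMM scaling the median of the 123 stayed below 0 in all 4 comparisons. The choice gave 29 transcripts with 2 added in place of 0.5. It gave 24 to 143 on leaving out 1 of its libraries, with the minimum of sense counts unchanged.

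Depth limits these values: 75 of the 123 transcripts had no count in KO postHS, where a group total of 0 allows up to 1.22 per 1000000 reads.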
